A study of Mus musculus with 14 samples.

Results

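The neutrophil granule programme, represented by 10 of the 55401 genes counted in every library, was followed by symbol through bone marrow adipose tissue of fed and calorically restricted mice. The genes were grouped by the maturation stage at which each is made. The primary (azurophilic) granule genes were Elane, Mpo, Prtn3 and Ctsg, the secondary (specific) granule genes were Ltf, Camp, Ngp, Lcn2 and Chil3, and Cebpe was the transcription factor. All 10 passed the filter on low counts and were among the 17671 genes tested.

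Male mice of mixed strain, SJLxC57BL/6J (C57BL6/SJL in the labels), 24 weeks old, were either fed ad libitum (AL) or held on a 30% caloric restriction (CR) for 6 weeks, and the marrow plug of the distal tibia was flushed out for RNA. The BMAd-Pnpla2-/- mice lacked Pnpla2, which encodes adipose triglyceride lipase, in bone marrow adipocytes, and the BMAd-Pnpla2+/+ mice were their littermates. The groups held 4 BMAd-Pnpla2+/+ AL, 4 BMAd-Pnpla2+/+ CR, 3 BMAd-Pnpla2-/- AL and 3 BMAd-Pnpla2-/- CR samples, and each sample pooled the plugs of 2 animals. The deletion relied on an Osterix-driven FLPo recombinase that switches on an Adipoq-Cre allele, which acts on a floxed Pnpla2. Recombination with this system is incomplete and varies with age and allele number, and the Cre allele itself lowers adiponectin. According to the paper, mice of both genotypes carried the FLPo and Cre alleles, and only the floxed alleles set the genotypes apart. The system was built to act in marrow adipocytes, while the granule genes are followed here as genes of maturing neutrophils. A small subset of stromal or dendritic cells was also labelled, according to the paper. Which cells of the plug gave the granule transcripts was not tested.

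Neutrophils build their granules in sequence as they mature in the marrow. Promyelocytes make primary granules filled with myeloperoxidase and serine proteases, and myelocytes and metamyelocytes then make secondary granules filled with lactoferrin, cathelicidin and lipocalin, under control of the factor C/EBP epsilon. Because each transcript is made mainly within its own stage and falls away later, primary against secondary granule RNA is a customary readout of how far the granulocytes of a marrow have matured. In bulk RNA, as here, fewer cells of a stage and less RNA per cell cannot be told apart.

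Promoter sequence is shown for 7 of the genes, because PU.1 and the C/EBP proteins are the known regulators of early and late granule genes and their letters are a property that the choice of genes did not use. In RefSeq promoters of GRCm38.p6, covering 250 bases before to 50 after each start, the PU.1 core GAGGAAG was searched on both strands, and so was TTGCNNAA, the C/EBP core. All 4 primary granule genes held GAGGAAG, against 1 of the 5 secondary genes (Lcn2) and 13.6% of 32851 promoters. TTGCNNAA stood in 3 of the 5 secondary genes, in none of the 4 primary genes and in 10.8% of all promoters. The windows of 60 bases below run 5′ to 3′ on the strand of the gene, with the match in capitals.
Elane (chr10:79886200-79886259, plus): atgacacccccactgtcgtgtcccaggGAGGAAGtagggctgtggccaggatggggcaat
Mpo (chr11:87793534-87793593, plus): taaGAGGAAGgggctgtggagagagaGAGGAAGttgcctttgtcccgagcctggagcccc
Prtn3 (chr10:79879545-79879604, plus): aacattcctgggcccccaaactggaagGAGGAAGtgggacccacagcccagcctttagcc
Ctsg (chr14:56102758-56102817, minus): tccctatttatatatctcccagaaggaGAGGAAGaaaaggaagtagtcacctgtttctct
Ltf (chr9:111019191-111019250, plus): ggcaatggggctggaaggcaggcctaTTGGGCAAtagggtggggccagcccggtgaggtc
Ngp (chr9:110419644-110419703, plus): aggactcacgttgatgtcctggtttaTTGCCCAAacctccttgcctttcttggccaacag
Lcn2 (chr2:32387922-32387981, minus): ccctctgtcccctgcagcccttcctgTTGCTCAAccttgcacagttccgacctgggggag
These are matches to letters, not sites shown to be bound, and Cebpe was not in the promoter table. The sets are 4 and 5 genes.

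Sequencing depth was close across libraries, at 18898324 to 21665553 reads counted to genes, so the members, which took 1.24% to 2.70% of them, were measured with small counting error. Values are CPM, the count of a gene relative to the total of its library after scaling with TMM factors, and each adjusted p is from edgeR's quasi-likelihood test on all 14 libraries, adjusted by the Benjamini-Hochberg method over all genes tested. A gene was called at an adjusted p under 0.05, and the study's stricter criteria also asked for an absolute log2 fold change over 1. Of the gene reads, 4.30% to 4.62% lay on the first strand in 11 libraries but 50.1% to 50.5% in the 3 BMAd-Pnpla2-/- CR libraries, as in a library prepared without strand. Counts that ignore strand were used for this reason, and in any comparison with that group the library type and the group cannot be told apart. Within BMAd-Pnpla2+/+ CR, replicates 2 and 3 held the lowest summed secondary granule levels of any library, and they also had summed erythroid markers of 9933 and 10162 CPM against 30777 and 47844 CPM in replicates 1 and 4. The counts of called genes and the balance of the classes are given with and without them.

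The deleted gene was read first. Pnpla2 stood at 301, 174, 199 and 189.5 CPM in BMAd-Pnpla2+/+ AL and at 804, 991, 1015 and 502 CPM in BMAd-Pnpla2+/+ CR. BMAd-Pnpla2-/- libraries held 135, 170.1 and 131 CPM when fed and 177, 219 and 267 CPM under CR. Pnpla2 rose with CR in BMAd-Pnpla2+/+, by 1.94 ± 0.23 on the log2 scale (SE; adjusted p = 5.95e-04), and stood at 0.60 ± 0.26 in BMAd-Pnpla2-/- (adjusted p = 0.143). Every BMAd-Pnpla2-/- CR library lay below every BMAd-Pnpla2+/+ CR library, with a log2 fold change of −1.90 ± 0.26 (SE; adjusted p = 0.0386), while the fed genotypes differed by −0.57 ± 0.25 (adjusted p = 0.9996). The plug also holds other cells, which keep the gene, and the source of the remaining Pnpla2 reads was not tested. For the wildtype Pnpla2 signal left in caudal vertebrae, the paper names periosteal white fat, cells other than adipocytes and perhaps incomplete deletion as possible sources. It also found a mutant Pnpla2 transcript there, which lacks the deleted exons. Counts per gene do not separate such a transcript from the intact one.

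With caloric restriction, granule transcripts of both classes were lower in BMAd-Pnpla2+/+ marrow, and over all libraries the balance between the classes moved by less than the spread between them. Of the 10 genes 6 fell, namely Prtn3, Mpo and Ctsg of the primary class, Ltf and Camp of the secondary class, and Cebpe, with falls of 27.7% (Ctsg) to 49.9% (Ltf). No member rose, and Chil3 was the only one whose mean was higher. None of the 6 passed in a fit without replicates 2 and 3 of CR, though all kept their direction, and the balance then moved by more than the spread of the fed libraries. Against this count of 6, 10.9% of all tested genes were called lower and 15.1% higher. Under the stricter criteria 0 of 10 passed with edgeR and 1 with DESeq2, against 9.28% and 10% of all genes. With edgeR 9 of 10 had an unadjusted p under 0.05, against 40.4%. In 6 genes, the same ones, no CR library overlapped an AL library on the lower side (10.4% of all genes; on the higher side 0, against 12.4%).

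**Figure D1:**
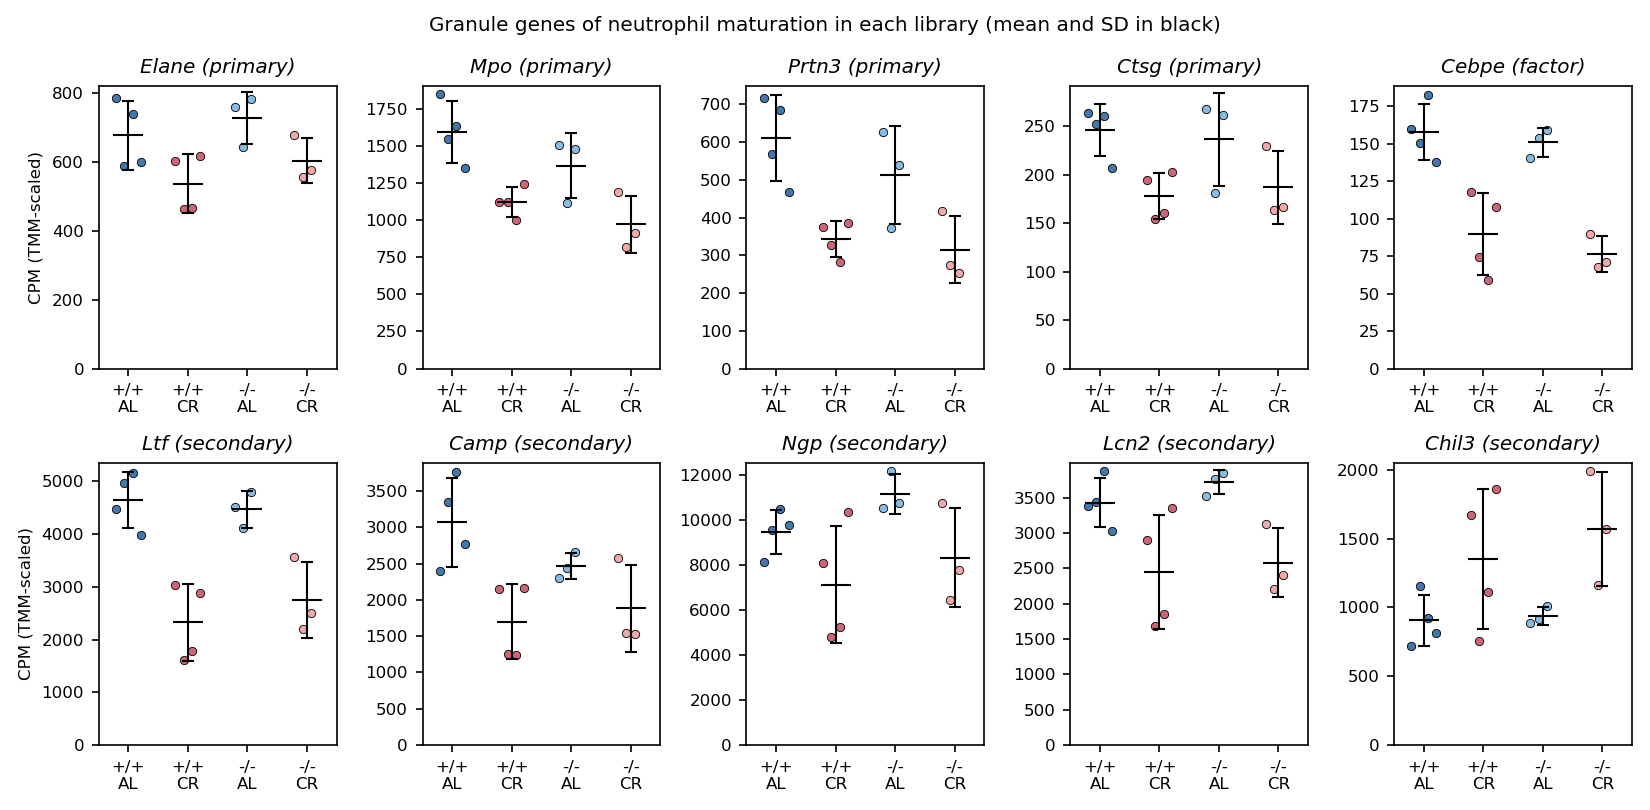
CPM of each of the 10 genes in every library, with 1 panel per gene, each point 1 library and bars for the mean ± SD of its group (n = 4, 4, 3 and 3). Most panels drop from AL to CR in both genotypes, Ltf from a mean of 4647 to 2327 CPM in BMAd-Pnpla2+/+, while Chil3 lies higher under CR.

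The primary granule genes encode the bactericidal arsenal of the azurophilic granule. Mpo, myeloperoxidase (chr11:87793581-87804413, plus strand of GRCm38), stood at 1848, 1548, 1631 and 1348 CPM in the fed BMAd-Pnpla2+/+ libraries and at 1119.8, 1121, 1002 and 1243 CPM under CR. The groups did not overlap, and the log2 fold change was −0.51 ± 0.15 (SE; 95% interval −0.82 to −0.19; adjusted p = 0.0241). In BMAd-Pnpla2-/- marrow Mpo read 1506, 1111 and 1475 CPM when fed and 1187, 816 and 910.4 CPM under CR. There the groups overlapped, and the log2 fold change of −0.49 ± 0.17 did not pass (adjusted p = 0.0727).

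Prtn3, proteinase 3 (chr10:79874476-79883174, plus), was the primary granule gene with the steepest fall. Its levels were 716, 569, 686 and 468 CPM in BMAd-Pnpla2+/+ AL and 375, 328, 281 and 386 CPM in BMAd-Pnpla2+/+ CR. No library of the restricted group reached the fed ones, at a log2 fold change of −0.83 ± 0.20 (95% interval −1.26 to −0.41; adjusted p = 0.0112). BMAd-Pnpla2-/- libraries gave 626, 372 and 539 CPM against 417, 274 and 254 CPM under CR. These values overlapped, with a log2 fold change of −0.70 ± 0.23 and an adjusted p of 0.0607.

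Ctsg, the chymotrypsin-like protease cathepsin G (chr14:56099881-56102574, minus), was the lowest of the 4. It read 264, 252, 261 and 207 CPM in BMAd-Pnpla2+/+ AL, against 194, 154, 160.5 and 202 CPM under CR, so the closest libraries of the groups lay a few CPM apart. The log2 fold change was −0.47 ± 0.15 (95% interval −0.79 to −0.14; adjusted p = 0.0368). In BMAd-Pnpla2-/- its values were 268, 182 and 262 CPM when fed and 230.3, 164 and 167 CPM under CR, which overlapped (log2 fold change −0.34 ± 0.17; adjusted p = 0.213).

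Elane, neutrophil elastase (chr10:79886247-79888215, plus), did not pass in either genotype. The fed BMAd-Pnpla2+/+ libraries held 785, 587, 741 and 599 CPM, and the restricted ones held 604, 462, 467 and 617 CPM, so that replicates 1 and 4 of CR lay within the fed range. The log2 fold change was −0.34 ± 0.14 (95% interval −0.63 to −0.04; adjusted p = 0.0819). In BMAd-Pnpla2-/- it was −0.27 ± 0.16 (95% interval −0.61 to 0.07; adjusted p = 0.272), from 759, 643 and 783 CPM to 678, 556 and 576 CPM. Elane, Prtn3 and Ctsg all encode serine proteases, and Prtn3 and Elane are neighbours on chromosome 10 with 3073 bases between them, yet in BMAd-Pnpla2+/+ Prtn3 fell by 43.8% while the point estimate of Elane was 20.7% lower. The difference between them was not tested.

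Ltf, the iron-binding lactoferrin (chr9:111019271-111042767, plus), had the largest log2 fold change below 0 of the 10 genes in BMAd-Pnpla2+/+. Its 4 fed libraries read 4470.2, 4975, 5164 and 3979 CPM and its 4 restricted libraries 3033, 1621, 1780.2 and 2876 CPM. Every restricted library lay below every fed one, and the log2 fold change was −0.998 ± 0.21 (95% interval −1.46 to −0.54; adjusted p = 0.00688). In BMAd-Pnpla2-/- Ltf went from 4515, 4108 and 4804 CPM to 3571, 2192 and 2498 CPM. Those groups did not overlap either, but the log2 fold change of −0.70 ± 0.25 did not pass (adjusted p = 0.0768).

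Camp (chr9:109847379-109849617, minus) encodes the cathelicidin antimicrobial peptide precursor. It read 2393, 3345, 3764 and 2767 CPM in fed BMAd-Pnpla2+/+ marrow and 2145, 1253, 1245 and 2157 CPM under CR. The groups stood apart, with a log2 fold change of −0.85 ± 0.23 (95% interval −1.35 to −0.36; adjusted p = 0.0189). In BMAd-Pnpla2-/- the values were 2306, 2438 and 2657 CPM when fed and 2578, 1537 and 1529 CPM under CR. Replicate 1 of CR lay among the fed libraries there, and the log2 fold change was −0.39 ± 0.27 (adjusted p = 0.356).

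Ngp, neutrophilic granule protein (chr9:110419747-110423012, plus), and Lcn2, the siderophore-binding lipocalin 2 (chr2:32384633-32388252, minus), had means below the fed ones but did not pass. Ngp read 8122, 9524, 10461 and 9765 CPM in BMAd-Pnpla2+/+ AL and 8090.5, 4791, 5244 and 10324 CPM under CR. Replicate 4 of CR thus lay among the highest fed libraries and replicates 2 and 3 far below the lowest. Its log2 fold change was −0.41 ± 0.23 (95% interval −0.91 to 0.09; adjusted p = 0.199). In BMAd-Pnpla2-/- it was −0.42 ± 0.27 (adjusted p = 0.325), from 10504 to 12160.3 CPM when fed and 6429 to 10740.1 CPM under CR. Lcn2 went from 3383, 3435, 3884 and 3024 CPM to 2899, 1687, 1847 and 3352 CPM in BMAd-Pnpla2+/+, where replicate 4 of CR lay within the fed range (log2 fold change −0.49 ± 0.20; adjusted p = 0.0866). In BMAd-Pnpla2-/- the Lcn2 levels of 3529.7, 3766 and 3855 CPM when fed did not overlap the 3128, 2202 and 2405 CPM under CR, at a log2 fold change of −0.53 ± 0.23 (adjusted p = 0.150).

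Chil3 (chr3:106147554-106167564, minus), a chitinase-like protein of the secondary granules that monocytes and macrophages also make, was the exception. Its fed BMAd-Pnpla2+/+ libraries held 722, 1154, 925 and 817 CPM and the restricted ones 1674, 757, 1112 and 1861 CPM. Replicates 1 and 4 lay above all fed libraries and replicates 2 and 3 did not, and the log2 fold change was 0.58 ± 0.25 (95% interval 0.04 to 1.12; adjusted p = 0.102). In BMAd-Pnpla2-/- Chil3 read 887, 916 and 1008 CPM when fed and 1989, 1159 and 1567 CPM under CR. All 3 restricted libraries lay above the fed ones, with a log2 fold change of 0.75 ± 0.29 (95% interval 0.12 to 1.37; adjusted p = 0.108), so it was not called in either genotype. Over all libraries some other markers of macrophages were also higher. Their summed level was 1100.2 to 1430.0 CPM in fed and 1408 to 1977 CPM in restricted BMAd-Pnpla2+/+. In BMAd-Pnpla2-/- it was 999 to 1713 CPM against 1306 to 2232 CPM. Of 7 markers 3 and 1 were called higher, where 15.1% and 6.04% of all genes were. Of the monocyte markers 3 of 7 were called lower and 0 higher in BMAd-Pnpla2+/+, and 1 lower in BMAd-Pnpla2-/-. Without replicates 2 and 3 of BMAd-Pnpla2+/+ CR, 0 of 7 macrophage markers were called in that genotype, and 2 were called higher in BMAd-Pnpla2-/-. Their median log2 fold change in BMAd-Pnpla2+/+ was then −0.05, while Chil3 was called higher. The part of these cells in the Chil3 level was not tested.

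Cebpe (chr14:54710360-54712174, minus), the factor that drives the secondary granule programme, fell in both genotypes. It read 159.7, 151, 182 and 138 CPM in fed BMAd-Pnpla2+/+ and 117, 74.7, 58.8 and 108 CPM under CR. These did not overlap, and the log2 fold change was −0.82 ± 0.18 (95% interval −1.21 to −0.42; adjusted p = 0.00887). BMAd-Pnpla2-/- libraries fell from 140.2, 154 and 159 CPM to 89.8, 67.9 and 70.7 CPM. Again no library overlapped, with a log2 fold change of −0.99 ± 0.21 (95% interval −1.44 to −0.53; adjusted p = 0.0148), and Cebpe was the sole member called in that genotype.

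In BMAd-Pnpla2-/- marrow, then, 1 of 10 genes was called lower and 0 higher under CR, against 5.57% and 6.04% of all genes. The stricter criteria gave 0 of 10 with edgeR and 1 with DESeq2, against 3.53% and 4.51% of all genes. With edgeR 6 of 10 had an unadjusted p under 0.05, against 29.1%. Of the members, 3 (Lcn2, Ltf and Cebpe) lay wholly below and 1 (Chil3) wholly above the fed libraries, where 17.4% and 20.5% of all genes did. DESeq2 called 8 members in BMAd-Pnpla2+/+ and 4 in BMAd-Pnpla2-/- at an adjusted p under 0.05, where it called 31.7% and 17.8% of all genes in either direction.

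**Figure D2:**
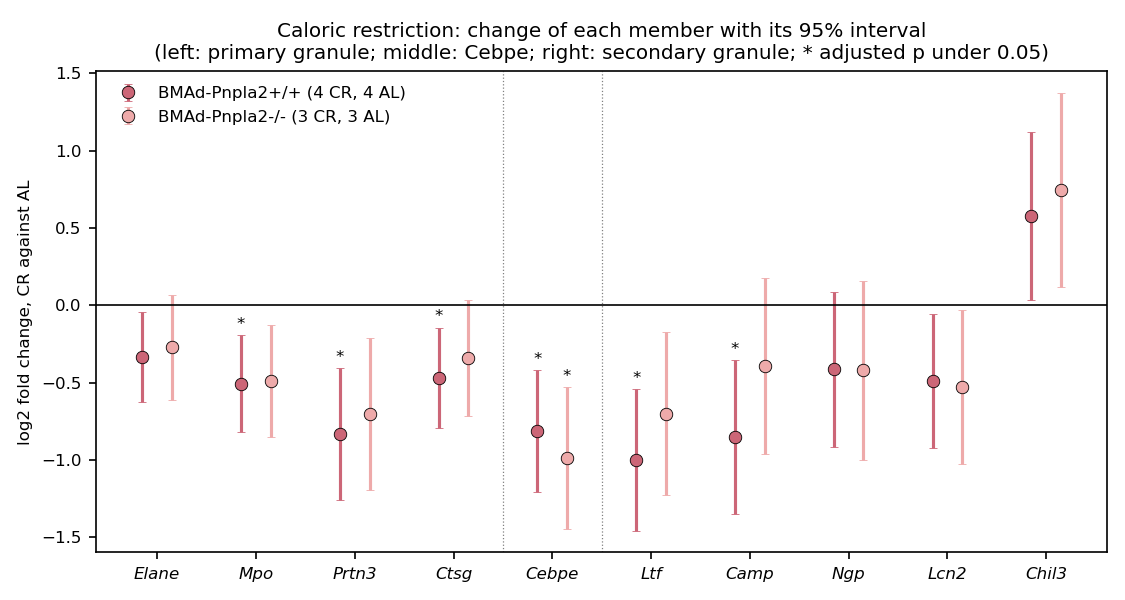
Log2 fold change of CR against AL for each gene in both genotypes, with 95% intervals from edgeR and an asterisk where the adjusted p was under 0.05. The point estimates of 9 genes lie below 0 in both genotypes and Chil3 lies above it, and the intervals of the genotypes overlap for every gene.

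The classes were compared by their medians and within libraries. The median log2 fold change in BMAd-Pnpla2+/+ was −0.49 in the 4 primary genes and −0.49 in the 5 secondary genes (−0.67 without Chil3), beside 0.00 over all genes tested. In BMAd-Pnpla2-/- these medians were −0.42, −0.42 and −0.47, beside 0.05. To set the stages against each other within a library, the mean log2 CPM of the secondary genes was subtracted from that of the primary genes. In the 4 and 4 BMAd-Pnpla2+/+ samples the difference had a mean ± SD of −2.40 ± 0.26 when fed and −2.44 ± 0.33 under CR. In the 3 and 3 BMAd-Pnpla2-/- samples it was −2.53 ± 0.28 when fed and −2.69 ± 0.11 under CR. The libraries of the groups overlapped in each comparison, and CR moved the means by −0.05 and −0.16, less than the SD within the fed groups. In BMAd-Pnpla2+/+ this rested on replicates 2 and 3 of CR. Without them the CR difference was −0.32, more than the fed SD, and the remaining CR libraries lay below every fed one.

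Library by library, primary minus secondary was −2.01, −2.59, −2.45 and −2.53 in BMAd-Pnpla2+/+ AL and −2.68, −2.04, −2.31 and −2.74 under CR. Replicates 2 and 3, low in both classes, had the highest values of the CR group. Among BMAd-Pnpla2-/- samples it was −2.28, −2.84 and −2.47 when fed and −2.78, −2.56 and −2.73 under CR. With Chil3 left out of the secondary genes the CR difference was 0.20 in BMAd-Pnpla2+/+ and 0.09 in BMAd-Pnpla2-/-, so its sign depended on this gene, and its size still lay within the SD of the fed libraries. Primary genes made up 12.8% of the summed CPM of both classes in BMAd-Pnpla2+/+ AL, 13.4% under CR, 11.1% in BMAd-Pnpla2-/- AL and 10.9% under CR.

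**Figure D3:**
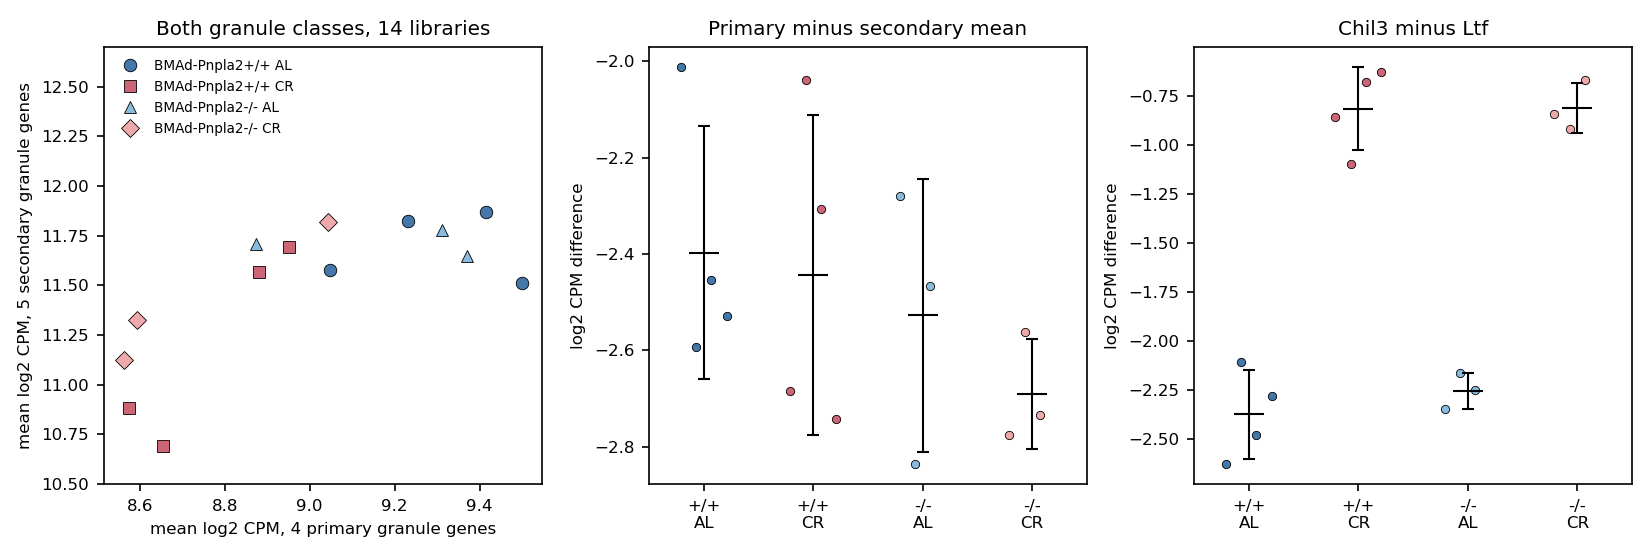
Left, mean log2 CPM of the 4 primary against the 5 secondary granule genes, 1 point per library; middle, primary minus secondary by group; right, Chil3 minus Ltf by group, with mean ± SD bars (n = 4, 4, 3 and 3). Primary minus secondary overlaps between diets, whereas Chil3 minus Ltf goes from −2.38 to −0.82 and from −2.26 to −0.81.

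Chil3 and Ltf had the highest and the lowest log2 fold change of the secondary genes in both genotypes, and were picked for it after the values were seen, so that their distance is a description. Chil3 minus Ltf in log2 CPM was −2.38 ± 0.23 (SD, n = 4) in fed and −0.82 ± 0.21 in restricted BMAd-Pnpla2+/+ libraries. In BMAd-Pnpla2-/- it was −2.26 ± 0.09 (SD, n = 3) and −0.81 ± 0.13. Fed and restricted libraries did not overlap in either genotype. Within BMAd-Pnpla2+/+ CR, Chil3 was nevertheless lowest in replicates 2 and 3, as were Ltf, Camp, Ngp and Lcn2.

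The calls in BMAd-Pnpla2+/+ rested in large part on those libraries. With replicates 2 and 3 of CR left out, an alternative chosen after seeing the data, 1 of 10 members passed an adjusted p of 0.05 in place of 6, and it was Chil3, as higher (log2 fold change 0.97; adjusted p = 0.0306). Of all genes 2.44% were called in that fit in BMAd-Pnpla2+/+ and 16.8% in BMAd-Pnpla2-/-, in either direction. Ltf and Cebpe then stood at −0.65 and −0.49 (adjusted p = 0.0792 and 0.0717), Prtn3 at −0.68 (0.155), Camp at −0.51 (0.222), Mpo at −0.43 (0.199) and Ctsg at −0.31 (0.343). The point estimates of the 9 genes stayed below 0, down to −0.04 for Ngp. In that fit, with fewer libraries, 4 members were called in BMAd-Pnpla2-/-, namely Ltf (−0.70; adjusted p = 0.0182), Lcn2 (−0.53; adjusted p = 0.0288) and Cebpe (−0.99; adjusted p = 0.00173) as lower and Chil3 (0.75; adjusted p = 0.0231) as higher. Left out alone, replicate 3 reduced the 6 calls to 3.

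Loss of Pnpla2 in marrow adipocytes was not accompanied by a detectable change in any granule gene. Under AL feeding the log2 fold changes of BMAd-Pnpla2-/- against BMAd-Pnpla2+/+ ran from −0.31 (Camp, 95% interval −0.85 to 0.22) to 0.23 (Ngp, −0.30 to 0.77). At an adjusted p of 0.05, 0 of 10 were called with edgeR or DESeq2, where edgeR called 0% and DESeq2 0.102% of all genes. None had an unadjusted p under 0.05 (3.96% of all genes). Ngp did not overlap between the fed genotypes, where 5.46% of all genes did not. Under CR the log2 fold changes ran from −0.23 (Cebpe, 95% interval −0.66 to 0.19) to 0.24 (Ltf, −0.25 to 0.73). Either tool called 0 of 10, beside 0.0113% of all genes with edgeR (0.00566% under the stricter criteria). DESeq2 called 11.9% of the genes to which it gave an adjusted p. With edgeR none of the 10 had an unadjusted p under 0.05 (23.2% of all genes), and none was free of overlap (16.7%).

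The response to CR was not shown to differ between the genotypes either. The interaction of genotype and diet ran from −0.17 (Cebpe; 95% interval −0.77 to 0.43) to 0.46 (Camp; −0.29 to 1.21) on the log2 scale, with adjusted p of 0.640 to 0.995. Of the 10, 0 were called with edgeR (0% of all genes) and 0 with DESeq2. DESeq2 called 0.823% of the genes to which it gave an adjusted p. With edgeR 0 members had an unadjusted p under 0.05 (10.4% of all genes). These intervals leave room for differences about as large as the CR changes themselves, and for some genes larger. That of Camp reached 1.21, beside a CR change of −0.85 in BMAd-Pnpla2+/+.

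Mpo needs a further word on counting. Its gene overlaps the antisense gene Gm11505 over 512 of its 3424 exon bases, and a read that could belong to either is dropped when strand is ignored. The level with strand ignored was 1594 ± 207 CPM (SD, n = 4) in BMAd-Pnpla2+/+ AL, against 2860 ± 352 CPM from reverse-strand counts. With reverse-strand counts of all libraries, the CR log2 fold change of Mpo was −0.40 (adjusted p = 0.0636) in BMAd-Pnpla2+/+ and −0.57 (adjusted p = 0.0243) in BMAd-Pnpla2-/-. In the authors' combined matrix, Mpo stood at 2579 to 3395 CPM in BMAd-Pnpla2+/+ AL, 1852 to 2555 CPM in BMAd-Pnpla2+/+ CR and 2296 to 3063 CPM in BMAd-Pnpla2-/- AL but at 1181, 815 and 903 CPM in BMAd-Pnpla2-/- CR, the levels of counts without strand.

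This column choice decided whether Mpo differed by genotype. The matrix gave a log2 fold change of −1.16 (adjusted p = 4.07e-04) between the restricted genotypes and an interaction of −1.08 (adjusted p = 0.0186). Where the strand rule was the same in all 14 libraries, these were −0.21 (adjusted p = 0.450) and 0.02 (adjusted p = 0.984) with strand ignored, and −0.25 (adjusted p = 0.307) between the restricted genotypes on the reverse strand. The values above therefore come from the counts that ignore strand.

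**Figure D4:**
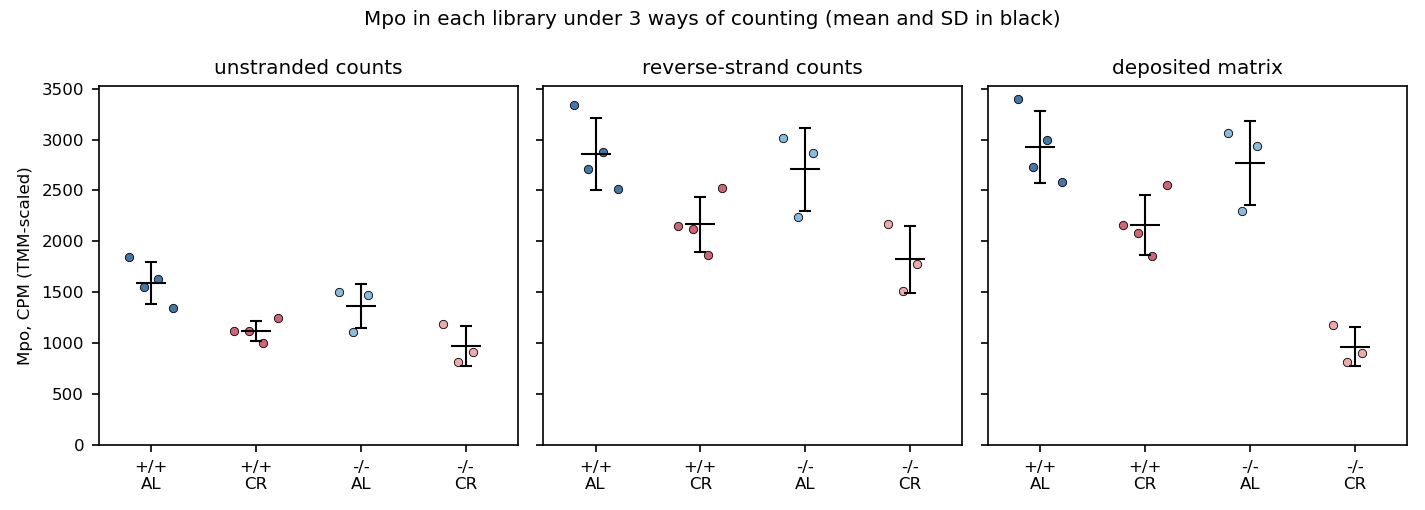
Mpo in CPM by group under 3 ways of counting (strand ignored, reverse strand in all libraries, and the deposited matrix), 1 point per library with mean ± SD bars. Only in the matrix do the BMAd-Pnpla2-/- CR libraries, at 815 to 1181 CPM, stand far below the other groups, whose lowest matrix value is 1852 CPM.

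Scaled to the merged length of all annotated exons, the order of the levels in fed BMAd-Pnpla2+/+ marrow put most secondary genes first. Per kilobase of exon, Ngp stood at 7748 ± 803 CPM (SD, n = 4) and Camp at 4046 ± 802 CPM, followed by Ltf at 1347 ± 155 and Lcn2 at 1308 ± 135 CPM, a pair that differed by less than either SD. Elane led the primary genes at 689 ± 101 CPM per kilobase, above Chil3 at 554 ± 114, Mpo at 465 ± 60.6 (too low for the reason above), Prtn3 at 352 ± 65.6, Ctsg at 238 ± 25.9 and Cebpe at 127 ± 15.04. Ranges of Elane and Chil3 overlapped (597 to 798 and 442 to 707 CPM per kilobase). An annotated exon that the marrow does not use lengthens a gene and lowers its value. The lengths used were 2623 bases for Lcn2, 3450 for Ltf and 1732 for Prtn3. The order, and the closeness of Ltf and Lcn2, therefore depend on the annotation, and the transcripts in use were not tested.

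Related genes, listed by function and not all particular to neutrophils, were lower with CR in parts of every list in BMAd-Pnpla2+/+. In that comparison 10.9% of all genes were called lower. Of 9 other primary granule genes 4 fell (Ctsc, Prss57, Lyz2 and Serpinb1a) and 0 rose, with a median log2 fold change of −0.38. Prss57, a further granule serine protease, fell by 0.55 (adjusted p = 0.00536) and Lyz2, lysozyme, by 0.56 (adjusted p = 0.0154) on the log2 scale, whereas the lysosomal genes Gusb and Cd63 stood at −0.02 and −0.00. Of 15 tested other secondary and tertiary granule genes 5 fell (Slpi, Cd177, Cyba, Itgb2 and Mmp25) and 0 rose, with a median of −0.37. Slpi, a protease inhibitor, fell by 0.82 (adjusted p = 0.0190) and Cd177, a neutrophil surface glycoprotein, by 0.67 (adjusted p = 0.0205), while Hp (haptoglobin) and Arg1 (arginase 1) read 0.20 and 0.85 and did not pass (adjusted p = 0.275 and 0.237).

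Genes of mature neutrophils had a median of −0.70, with 7 of 13 down (Cxcr2, Il1b, S100a8, S100a9, Csf3r, Padi4 and Ly6g) and 0 up. Il1b, interleukin 1 beta, fell by 1.27 (adjusted p = 0.00351) and Ly6g, the surface antigen of murine neutrophils, by 1.23 (adjusted p = 0.00576), while the formyl peptide receptor Fpr1 read −0.16 and Stfa2l1 0.47 (adjusted p = 0.592 and 0.298). Their summed level ran from 10186 to 15026 CPM in fed and from 4711 to 8829 CPM in restricted BMAd-Pnpla2+/+ libraries, with replicates 2 and 3 of CR again lowest. In BMAd-Pnpla2-/- 2 of the 13 fell (Il1b and Csf3r), and their sum was 10863 to 11365 CPM when fed and 6995 to 11807 CPM under CR.

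The myeloid factors and growth factor receptors went both ways. In BMAd-Pnpla2+/+ 6 of 11 fell (Spi1, Irf8, Myb, Csf2rb, Cebpd and Csf2ra) and 2 rose (Kit and Cebpa), with a median of −0.40. Cebpa, which acts upstream of the granule genes in early progenitors but is also made by adipocytes, rose by 1.19 (adjusted p = 0.00551), and Kit, the stem cell factor receptor of progenitors and mast cells, rose by 0.93 (adjusted p = 0.00750). Myb, a factor of immature progenitors, fell by 1.11 (adjusted p = 0.00185) and Cebpd by 0.52 (adjusted p = 0.00576). In BMAd-Pnpla2-/- 5 fell (Spi1, Irf8, Myb, Cebpd and Csf2ra) and 0 rose; Cebpa read 0.52 (adjusted p = 0.231) and Kit 0.57 (adjusted p = 0.121). Cell division genes fell in 7 of 12 cases in BMAd-Pnpla2+/+ (median −0.82), Top2a by 1.05 (adjusted p = 0.0212) and Birc5 by 0.99 (adjusted p = 0.0317), with Aurkb falling by 0.74 (adjusted p = 0.0322) and Ccnb1 at −0.77 (adjusted p = 0.0748), and in 0 of 12 cases in BMAd-Pnpla2-/- (median −0.28). In that genotype 2 of 9 other primary genes (Cst7 and Prss57) and 1 of 15 other secondary genes (Cyba) fell, where 5.57% of all genes were called lower. No gene of these lists was called in a comparison of the genotypes or in the interaction.

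The list counts in BMAd-Pnpla2+/+ also rested on replicates 2 and 3 of CR, and 0.909% of all genes were called lower without these libraries. Without them 1 of 9 other primary genes fell (Ctsc; median of the list −0.19), 0 of 15 other secondary and tertiary genes (−0.18), 1 of 13 mature neutrophil genes (Ly6g; −0.47), 2 of 11 myeloid factors and receptors (Myb and Runx1; −0.33) and 0 of 12 cell division genes (−0.36), and 0 of any list rose.

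**Figure D5:**
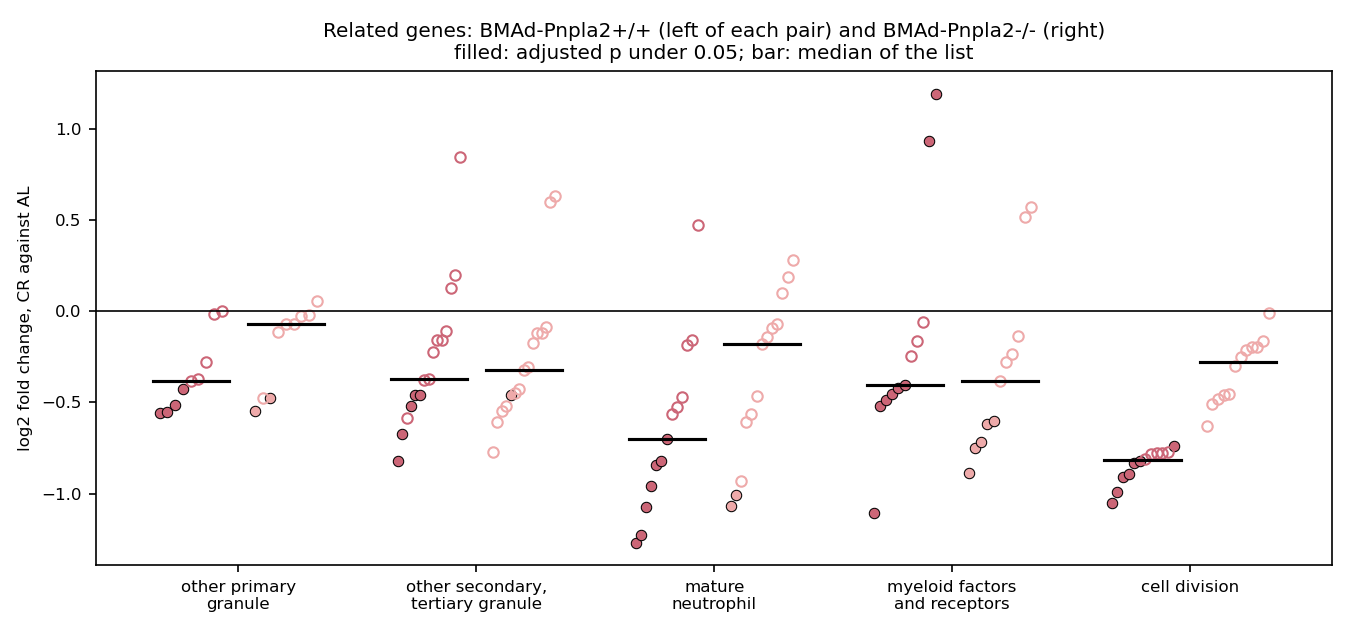
Log2 fold change of CR against AL for the genes of 5 related lists in both genotypes, 1 point per gene, filled where the adjusted p was under 0.05, with a bar at the median of each list. The medians in BMAd-Pnpla2+/+ lie between −0.82 (cell division) and −0.37 (other secondary and tertiary granule genes).

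Markers of other cells in the plug moved with diet beside these values. All 7 adipocyte markers were called higher with CR in both genotypes, and their sum ranged over 651 to 1677 CPM in fed and 1838 to 4568 CPM in restricted BMAd-Pnpla2+/+ libraries, and over 296 to 671 CPM and 1183 to 1912 CPM in BMAd-Pnpla2-/-. Of 6 eosinophil markers 5 were called lower in both genotypes. The erythroid markers, 0 of 7 called in either genotype, had sums of 16788 to 30172 CPM in fed and 9933 to 47844 CPM in restricted BMAd-Pnpla2+/+, and of 35436 to 45204 CPM in fed and 28611 to 46649 CPM in restricted BMAd-Pnpla2-/-. In BMAd-Pnpla2+/+ 4 of 6 osteoblast, 4 of 5 endothelial and 4 of 6 T cell markers were called higher, 1 of 7 B cell markers lower and 0 of 6 basophil and mast cell markers. In BMAd-Pnpla2-/- these counts were 1, 0, 2, 1 and 0. No marker of these lists was at 0 counts. Without replicates 2 and 3 of BMAd-Pnpla2+/+ CR, 2 of 7 adipocyte, 1 of 6 osteoblast, 3 of 6 T cell and 0 of 5 endothelial markers were called higher in that genotype, 0 of 6 eosinophil and 1 of 7 monocyte markers lower, and 0 of 7 macrophage markers. CPM is a share of all RNA, so a rise of any of these lowers the others, and their part in the granule gene values was not tested.

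Genes next to the members in the genome gave a local comparison. Cfd, the adipocyte gene for complement factor D that starts 2638 bases beyond Elane, rose with CR by 1.77 (adjusted p = 0.0139) in BMAd-Pnpla2+/+ and by 2.23 (adjusted p = 0.0194) in BMAd-Pnpla2-/-, the opposite direction from the primary granule genes beside it. Plppr3, which overlaps 159 of the 1732 exon bases of Prtn3 (9.18%), read 0.10 and −0.21 and did not pass, and Lpo, beside Mpo, was near the lower limit at under 1 CPM. Klhl18 beside Ngp read −0.08 and −0.23, and 1110008P14Rik beside Lcn2 read 0.35 and 0.02, none of them called.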

How the data were processed

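RNA of 14 marrow plug samples was sequenced as paired-end reads of 100 bases on the DNBSEQ platform; per the labels and the study's methods, FastQC 0.11.9, STAR with mm10 and DESeq2 were used. The deposited values are whole-number counts of reads per gene that the authors obtained with STAR, with strand ignored or for either strand, and a combined count matrix. GENCODE M21 gave gene positions and exon lengths, and RefSeq the promoters. Rows that name no gene (21.1% to 25.6% of read pairs) were left out.

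Counts with strand ignored were fitted over the 4 groups with edgeR 4.0.16 in R 4.3.3 (filterByExpr, TMM, robust quasi-likelihood fit, two-sided tests, no block). Values are CPM with those factors, and log2 CPM used a prior count of 2. The thresholds were an adjusted p of 0.05 and, as in the study, an absolute log2 fold change of 1. Named were all 10 members, Pnpla2, 4 genes of each related list (the extremes of its log2 fold changes of CR in BMAd-Pnpla2+/+, 2 at either end), genes adjoining a member, and 5 genes per class by likeness. The members and lists were chosen with earlier results of these data known. Replicates of a group differed beyond sampling noise; the methods say that animals were pooled, so p-values measure the spread between pools of 2 mice. DESeq2 1.42.0 and the other settings in the closing section were alternatives, 2 of them chosen after seeing the data: Mpo left out of the primary genes, and replicates 2 and 3 of BMAd-Pnpla2+/+ CR left out. The script was tested on simulated data.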

Additional observations from a re-analysis of the deposited data

How the results depend on the processing

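In BMAd-Pnpla2+/+ and BMAd-Pnpla2-/- the point estimates of the same 9 members stayed below 0 with CR in the 11 settings other than leaving out libraries. Under the stricter criteria, 0 members became 1 in BMAd-Pnpla2+/+ with the deposited matrix, with DESeq2 size factors, without a filter on low counts and with DESeq2, and 1 in BMAd-Pnpla2-/- with these settings and with only the 2 groups compared; the matrix also gave 1 between the restricted genotypes and 1 in the interaction, by either threshold. The 1 member called in BMAd-Pnpla2-/- at an adjusted p of 0.05 became 6 with reverse-strand counts, 3 with the matrix, 2 with DESeq2 size factors, 2 without a filter, 4 with DESeq2 and 3 with only the 2 groups, while the share of all genes called in either direction, 11.6% in the reported fit, was 25.9%, 22.3%, 12.3%, 4.66%, 17.8% and 16.1%. With replicates 2 and 3 of BMAd-Pnpla2+/+ CR left out, the counts at an adjusted p of 0.05 came to 1 for BMAd-Pnpla2+/+ mice and 4 for BMAd-Pnpla2-/- mice. In the matrix the strand rule differs between groups, and the fit without these replicates holds fewer libraries. The cause of the changed counts was not tested in any setting. Leaving out 1 library at a time gave 0 to 3 and 0 to 1 by the stricter criteria, and 3 to 9 and 0 to 4 at an adjusted p of 0.05, in BMAd-Pnpla2+/+ and BMAd-Pnpla2-/-. The 3 came without BMAd-Pnpla2+/+ CR replicate 3, the 0 without replicate 2 or 3 of BMAd-Pnpla2-/- CR, and the 4 without BMAd-Pnpla2-/- AL replicate 2 or BMAd-Pnpla2-/- CR replicate 1. Chil3 was called higher in BMAd-Pnpla2+/+ without CR replicate 2 (0.78; adjusted p = 0.0311). Library totals alone moved the median gene of BMAd-Pnpla2-/- with CR to 0.12, from 0.05. Over all genes, the stricter criteria called 1 gene between the restricted genotypes with edgeR and 103 with DESeq2.

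Among single genes, changes of sign were all in differences between genotypes or in the interaction, and of these only Mpo in the matrix was called (adjusted p = 0.0186). Between the restricted genotypes, reverse-strand counts gave −0.22 for Elane and −0.094 for Ctsg, and the fit without replicates 2 and 3 gave −0.019 for Elane, −0.087 for Ctsg, −0.10 for Ltf, −0.19 for Camp, −0.15 for Ngp, −0.28 for Lcn2 and −0.17 for Chil3. In the interaction, that fit gave −0.12 for Elane, −0.060 for Mpo, −0.023 for Prtn3, −0.032 for Ctsg, −0.049 for Ltf and −0.22 for Chil3; reverse-strand counts gave −0.32 for Elane, −0.17 for Mpo and −0.039 for Ctsg; for Mpo the matrix gave −1.08, DESeq2 size factors −0.0093, no filter −0.038 and DESeq2 −0.0093; and for Ngp the matrix gave 0.023 and library totals 0.024. With 1 library left out, the ranges that crossed 0 were −0.14 to 0.12 (Ctsg), −0.12 to 0.017 (Ltf), −0.043 to 0.19 (Chil3) and −0.12 to 0.020 (Cebpe) between the fed genotypes, −0.38 to 0.011 (Prtn3), −0.11 to 0.16 (Ctsg), −0.15 to 0.28 (Camp), −0.0031 to 0.46 (Ngp) and −0.088 to 0.27 (Lcn2) between the restricted ones, and −0.076 to 0.14 (Elane), −0.17 to 0.13 (Mpo), −0.13 to 0.26 (Prtn3), −0.091 to 0.21 (Ctsg), −0.24 to 0.23 (Ngp), −0.21 to 0.15 (Lcn2) and −0.041 to 0.36 (Chil3) in the interaction. For CR in BMAd-Pnpla2+/+ and BMAd-Pnpla2-/-, primary minus secondary was −0.05 and −0.16 as reported, 0.20 and 0.09 without Chil3, 0.016 and −0.05 with Cebpe among the secondary genes, −0.02 and −0.42 in the matrix, −0.06 and −0.15 without Mpo, and −0.32 in BMAd-Pnpla2+/+ without replicates 2 and 3; each moved by less than the larger SD of the groups compared, though the −0.32 by more than the fed SD. With 1 library left out it ran from −0.18 to 0.08 in BMAd-Pnpla2+/+ and from −0.32 to −0.04 in BMAd-Pnpla2-/-. Between the restricted genotypes it was −0.25 as reported and 0.023 without replicates 2 and 3.

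The replicate numbers gave no clear sign of pairing. Of 19 pairs with the same number 7 correlated above 0.1 (−0.38 to 0.33), beside 16 of 54 pairs with different numbers (−0.44 to 0.36). Of 14 libraries 5 correlated best with their own number. With groups this small, the correlations do not settle whether samples were paired. With the replicate number as a block, the stricter criteria called 1 member in each genotype with CR, 2 were called in BMAd-Pnpla2-/- at an adjusted p of 0.05 (Prtn3, at 0.0406, beside Cebpe), and Ngp read 0.031 in the interaction; no other sign changed.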

Other observations

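Genes whose pattern over the 14 libraries was most like the granule classes were ranked, over the 13042 genes averaging 50 counts or more, by Pearson correlation of log2 CPM with the mean z-score of a class. The values are a description, since the points share libraries, diet groups and cell make-up. The ranking used the same libraries as the CR comparison, so a fall with CR is in part set by the choice of genes. The adjusted p-values of edgeR given below are therefore no separate support. With CR 10.9% of all genes were called lower in BMAd-Pnpla2+/+ and 5.57% in BMAd-Pnpla2-/-. For the primary genes the nearest were Cnnm4 (r = 0.967), a magnesium transporter, Ldha (0.962), lactate dehydrogenase A, Pgam1 (0.943), a glycolytic mutase, Mefv (0.942), which encodes pyrin, and Pfkfb4 (0.942), a regulator of glycolysis. With CR in BMAd-Pnpla2+/+ Mefv fell by 0.72 (adjusted p = 0.00834), Pfkfb4 by 0.45 (adjusted p = 0.0190), Ldha by 0.39 (adjusted p = 0.0270) and Cnnm4 by 0.29 (adjusted p = 0.0287) on the log2 scale, and Pgam1 stood at −0.33 (adjusted p = 0.0524).

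For the secondary genes the nearest were Ncf1 (r = 0.965), a subunit of the phagocyte NADPH oxidase, Ifnlr1 (0.961), the interferon lambda receptor, Anxa1 (0.956), annexin A1, Wfdc21 (0.954) and Mcemp1 (0.953). In BMAd-Pnpla2+/+ Mcemp1 fell with CR by 0.67 (adjusted p = 0.0329), Wfdc21 by 0.62 (adjusted p = 0.0466) and Ncf1 by 0.52 (adjusted p = 0.0468), while Ifnlr1 and Anxa1 stood at −0.49 and −0.46 (adjusted p = 0.0605 and 0.159). None of these 10 genes was called in BMAd-Pnpla2-/-.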
